A study of Rattus norvegicus with 8 samples.

Results

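The genes described here encode subunits of voltage-gated sodium channels: the pore-forming alpha subunit genes Scn1a, Scn3a, Scn4a, Scn7a and Scn10a and the accessory beta subunit genes Scn2b, Scn3b and Scn4b. They are 8 of 14506 genes measured, and each is represented by the brightest probe set, by mean log2 intensity over the 8 arrays, among those paired with that gene alone. Only Scn3a had a choice of probe sets, so these mean levels chose nothing for the other 7 genes. The genes were proposed with results of these arrays known.

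The arrays measured RNA of primary cardiomyocytes from the ventricles of newborn rats, isolated heart muscle cells kept in dishes. In 4 arrays the cells had been given a precursor of miR-222, and in 4 control arrays a scrambled precursor, both at 0.4 µM by lipid transfection, with RNA taken after 48 h. No genotype, strain or sex is given in the labels, and the labelled dose and time are the same in both groups. Cells process such a precursor, a short synthetic RNA, into the mature microRNA, and the comparison also holds any effect of the scrambled RNA. Whether the 4 arrays of a group stem from separate cultures is not stated in the labels, and p-values then measure only the spread among these arrays, which may be technical.

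Voltage-gated sodium channels open on depolarisation and carry the fast inward current that starts the action potential of heart muscle, nerve and skeletal muscle. One alpha subunit forms the pore, and beta subunits, single-pass membrane proteins with an immunoglobulin-like domain, set how much channel reaches the membrane and how fast it inactivates and recovers. The family gene Scn9a had no probe set paired with it alone and was not analysed here.

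The microRNA added to the cells is shown first, since its seed, the stretch at its 5′ end that pairs with target transcripts, is what the treated arrays have in excess. In the RefSeq table of rat microRNAs (build GRCr8), miR-222-3p lies at chrX:6022682-6022702 and miR-221-3p at chrX:6023246-6023268, both on the plus strand, and of 724 mature sequences these 2 carry this seed. Capitals mark bases 2 to 8, the seed.
rno-miR-222-3p: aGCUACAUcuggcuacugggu
rno-miR-221-3p: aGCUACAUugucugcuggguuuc

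With miR-222, transcripts of the alpha subunit gene Scn1a and of the beta subunit gene Scn3b were lower, and those of the beta subunit gene Scn4b and of the alpha-like gene Scn7a were higher. Scn3b was 2.52-fold lower and Scn1a 1.72-fold lower, whereas Scn4b was 1.56-fold and Scn7a 1.33-fold higher. Scn3a, Scn4a, Scn10a and Scn2b did not pass the test, so 2 members fell, 2 rose and 4 did not pass at an adjusted p under 0.05 in limma. Over all genes 13.0% passed as lower, 11.7% as higher and 24.7% in either direction. The members' median difference was 0.07 on the log2 scale against 0.01 over all genes. The count of members that fell was 1 with any one control array left out, since the call of Scn3b was lost. In these fits 2686 to 2959 of all genes passed, against 3580 with all arrays. The count that rose was 1 without miR-222 replicate 3, since the call of Scn7a was lost, and 3179 of all genes passed in that fit. All values below are log2 intensities, and each difference subtracts the control mean from the miR-222 mean of 4 arrays each, beside its standard error (SE) from limma.

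**Figure D1:**
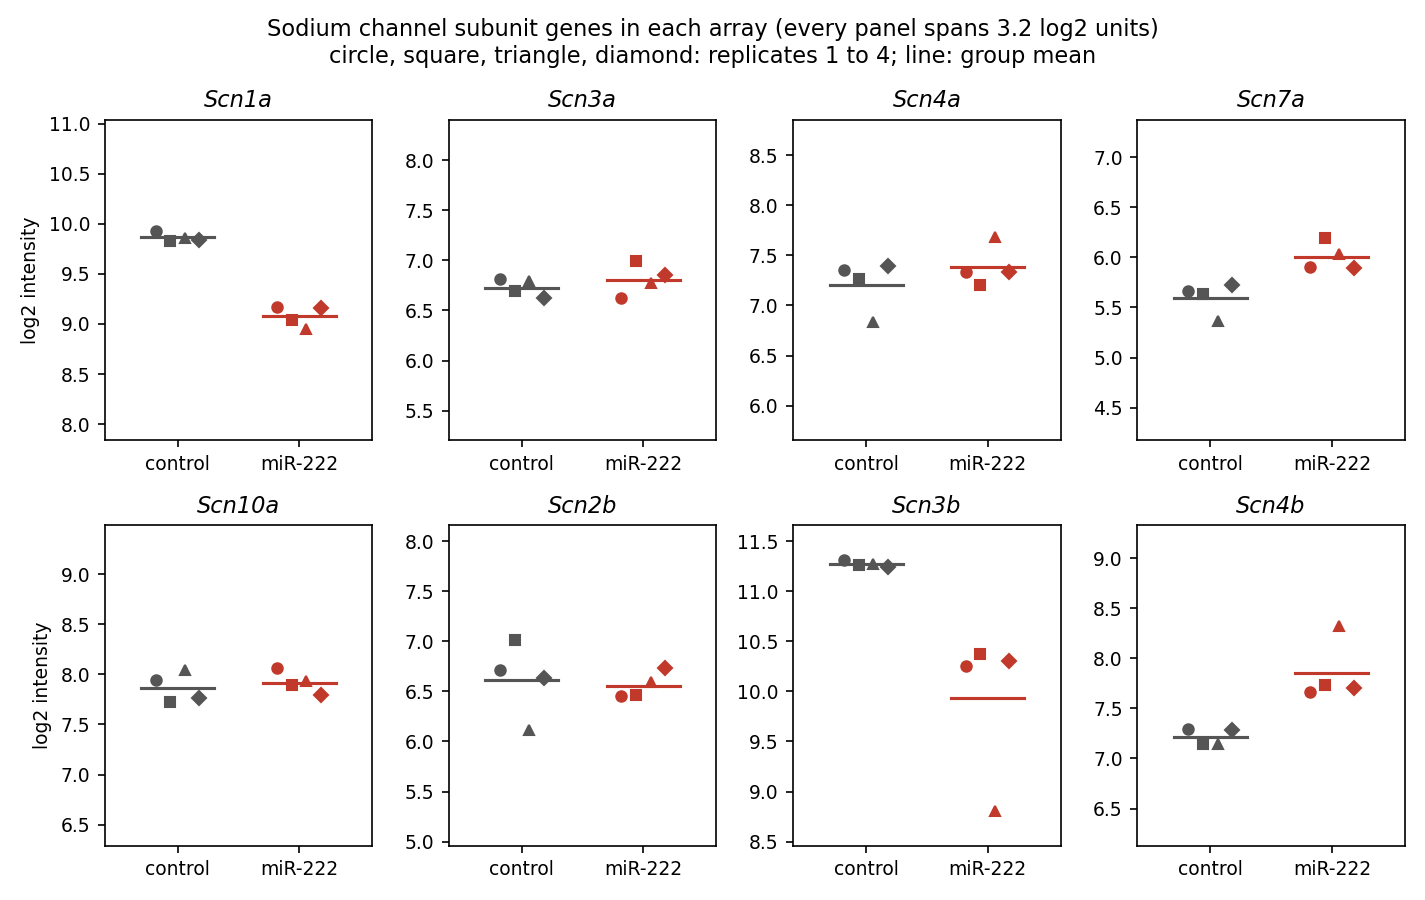
Log2 intensity of each sodium channel subunit gene (y axis) in the control arrays (grey) and the miR-222 arrays (red), with symbols for replicates 1 to 4 and a line at the group mean. Every panel spans the same number of log2 units around its own centre. Scn1a and Scn3b lie lower in all 4 miR-222 arrays and Scn4b and Scn7a lie higher, while miR-222 replicate 3 (triangle) stands apart at 8.81 for Scn3b and 8.32 for Scn4b.

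Among the alpha subunits, Scn1a encodes Nav1.1, a channel best known from inhibitory neurons of the brain that is also present in heart muscle. Its probe set 10845859 read 9.93, 9.83, 9.86 and 9.84 in control replicates 1 to 4 and 9.17, 9.04, 8.95 and 9.16 in miR-222 replicates 1 to 4. Every miR-222 array lay below every control array, and the gap between the groups was wider than the range within either. The means were 9.87 ± 0.04 and 9.08 ± 0.11 (SD, n = 4 each), a difference of -0.79 (SE 0.06, limma adjusted p = 1.35e-04). This difference was the 120th lowest of 14506 genes. It was -0.82 to -0.74 when single arrays were left out, and it passed in each of those fits.

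Scn7a encodes Nax, a relative of the alpha subunits that senses extracellular sodium rather than voltage and is known from glia and peripheral nerve. Its probe set 10845917 read 5.66, 5.63, 5.36 and 5.72 in control replicates 1 to 4 and 5.90, 6.19, 6.03 and 5.89 in miR-222 replicates 1 to 4. The groups did not overlap, but the highest control array and the lowest miR-222 array were close. The difference was 0.41 (SE 0.10, limma adjusted p = 0.0207), and 0.40 (adjusted p = 0.0538) without miR-222 replicate 3. The mean of this probe set lay above only 9.86% of all probe sets, a range of intensity in which background can compress a fold change. Of the Schwann cell markers Sox10, Mbp, S100b and Erbb3, 0 of 4 measured passed the limma test in either direction (unadjusted p under 0.05 in 0 of them), and their summed intensity was 764 to 908 in control and 861 to 950 in miR-222 arrays. Whether such cells have a part in the Scn7a result was not tested. In bulk RNA of a culture, fewer cells of a type and less RNA per cell cannot be told apart.

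The other alpha subunits showed no difference past the spread of the arrays. Scn3a, the gene of Nav1.3, a channel of the embryonic brain, read 6.62 to 6.81 in control and 6.62 to 6.99 in miR-222 arrays (probe set 10845809), a difference of 0.08 with a 95% interval of -0.12 to 0.27 (limma adjusted p = 0.597). Its dimmer probe set, 10845798, gave 0.02 (SE 0.09). Scn4a, which encodes the skeletal muscle channel Nav1.4, read 6.83 to 7.39 in control and 7.20 to 7.68 in miR-222 arrays (probe set 10748280), a difference of 0.18 with a 95% interval of -0.16 to 0.52. The highest Scn4a value was that of miR-222 replicate 3 and the lowest that of control replicate 3. Scn10a, which encodes Nav1.8 of sensory neurons, read 7.72 to 8.04 in control and 7.79 to 8.06 in miR-222 arrays (probe set 10920900), a difference of 0.06 with a 95% interval of -0.15 to 0.26. The 95% intervals reach up to 0.27 log2 units for Scn3a, 0.26 for Scn10a and 0.52 for Scn4a. They concern the difference in array signal and set no limit to the change in transcript. The mean of the Scn3a probe set lay above only 29.1% of all probe sets, where background can compress a fold change.

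Of the beta subunits, Scn3b had the largest difference. It encodes beta-3, which binds the alpha subunit without a covalent bond and in which rare variants are linked to inherited arrhythmia. Its probe set 10909328 read 11.31, 11.26, 11.27 and 11.24 in control replicates 1 to 4 and 10.25, 10.37, 8.81 and 10.30 in miR-222 replicates 1 to 4. The control arrays lay within a narrow band, miR-222 replicates 1, 2 and 4 lay in another band below it, and replicate 3 lay far below both. The SD was 0.03 in control and 0.75 in miR-222 arrays, and the latter was above the miR-222 SD of 99.9% of genes. The difference of -1.34 (SE 0.33, limma adjusted p = 0.0238) became -0.96 (SE 0.04, adjusted p = 1.19e-04) without replicate 3, so the fall was smaller and its error smaller. Replicate 3 alone differed from the control mean by -2.46 log2 units. With any one control array left out the adjusted p was 0.0542 to 0.0606, with differences of -1.35 to -1.32.

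Scn4b encodes beta-4, which is joined to the alpha subunit by a disulfide bond and supports the resurgent sodium current. Its probe set 10909621 read 7.29, 7.14, 7.14 and 7.28 in control replicates 1 to 4 and 7.66, 7.73, 8.32 and 7.70 in miR-222 replicates 1 to 4. All miR-222 arrays were above all control arrays, and replicate 3 was again the one apart, here at the top. The difference was 0.64 (SE 0.14, limma adjusted p = 0.0172), and 0.48 (SE 0.06, adjusted p = 0.00207) without replicate 3. The largest adjusted p among the fits that left out 1 array or changed the processing was 0.0499.

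Scn2b encodes beta-2, the other subunit that binds by a disulfide bond. Its probe set 10909616 read 6.71, 7.01, 6.11 and 6.63 in control replicates 1 to 4 and 6.45, 6.46, 6.59 and 6.73 in miR-222 replicates 1 to 4. The miR-222 values lay inside the range of the control values. The difference was -0.05 with a 95% interval of -0.46 to 0.35 (limma adjusted p = 0.879), the widest interval among the members that did not pass, and it changed sign to 0.08 without control replicate 2.

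**Figure D2:**
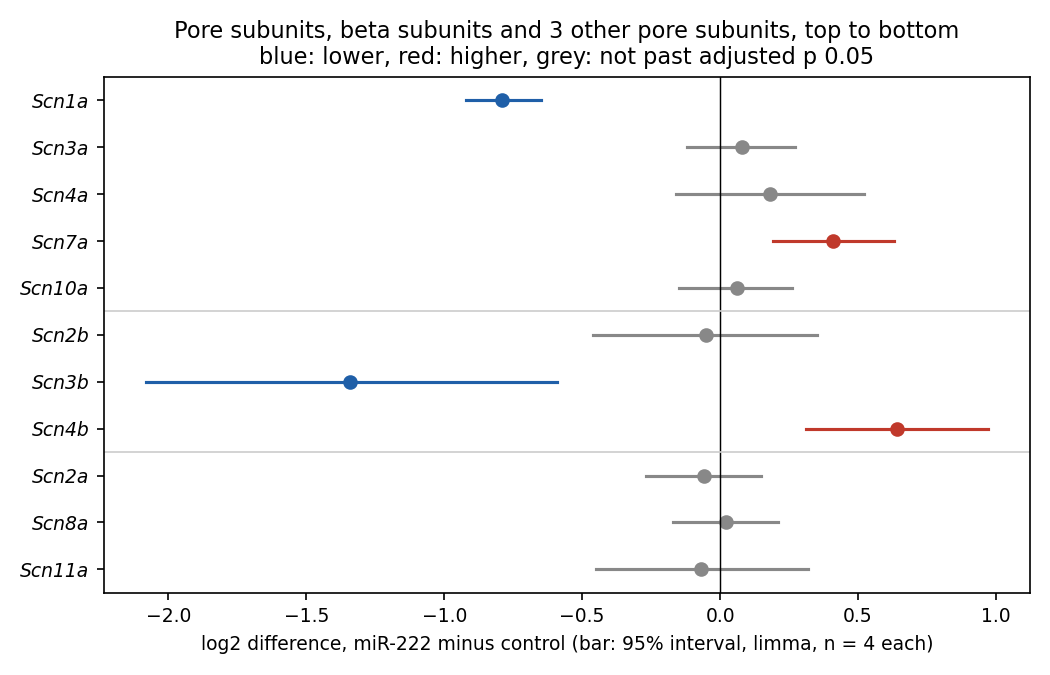
Log2 difference, miR-222 minus control (x axis), of the 5 alpha and 3 beta subunit genes and of Scn2a, Scn8a and Scn11a, as points with 95% intervals of the limma fit, 4 arrays in each group. Scn1a and Scn3b lie below zero (-0.79 and -1.34) and Scn7a and Scn4b above it (0.41 and 0.64), and the intervals of the other genes include zero.

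The 4 members with an adjusted p under 0.05 were also the 4 whose groups did not overlap, where 33.3% of all genes had groups that did not overlap. In the exact two-sided permutation test over the 8 arrays each of these had p = 0.0286, the smallest that 4 against 4 arrays can give, unadjusted. Adjusted by Benjamini-Hochberg over all probe sets that exact p was 0.111, so no gene could pass by this test. Leaving out miR-222 replicate 3 brought Scn3b and Scn4b closer to the control level and left both past the threshold. Replicate 3 was the lowest miR-222 array for Scn1a and Scn3b, the highest for Scn4b and Scn4a, and inside the range of the other 3 for Scn7a, Scn3a, Scn10a and Scn2b.

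**Figure D3:**
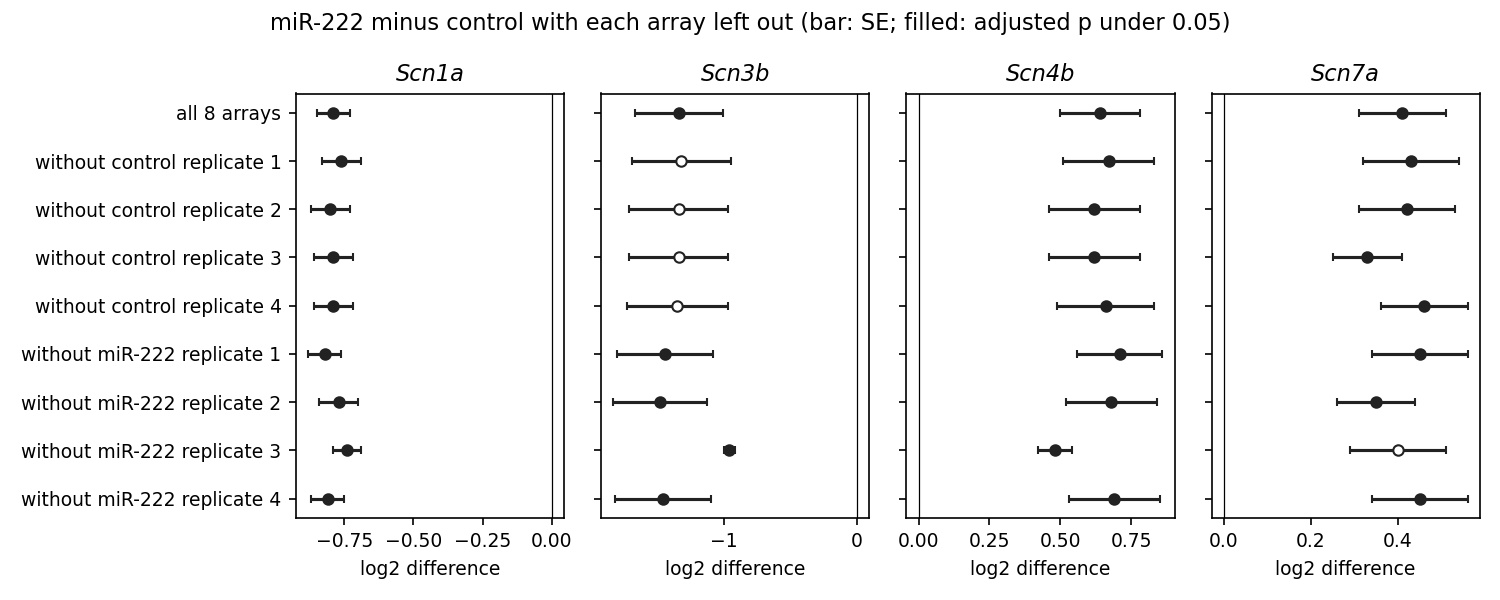
Log2 difference, miR-222 minus control (x axis), of the 4 members past the threshold, with all 8 arrays and with each array left out (rows), with the SE as bars and filled points where the adjusted p was under 0.05. The largest move is that of Scn3b, from -1.34 to -0.96 without miR-222 replicate 3, where its SE is 0.04, and its open points are the 4 fits that leave out a control array.

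Other genes of the family measured here were Scn2a and Scn8a, the genes of the brain channels Nav1.2 and Nav1.6, and Scn11a, the gene of Nav1.9 of sensory neurons, and 0 of these 3 passed the limma test (unadjusted p under 0.05 in 0 of them). Scn2a read 5.96 to 6.08 in control and 5.77 to 6.12 in miR-222 arrays, a difference of -0.06 with a 95% interval of -0.27 to 0.15. Scn8a differed by 0.02 with an interval of -0.17 to 0.21. Scn11a differed by -0.07 with an interval of -0.45 to 0.32, and its highest value, 7.11, was that of control replicate 4. The signs of these 3 differences changed with the arrays used. The probe sets were dim, with means above 12.6% (Scn2a), 22.7% (Scn8a) and 25.9% (Scn11a) of all probe sets. The lack of a call thus does not show that these transcripts were unchanged.

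The order of the genes along the chromosomes, from RefSeq for GRCr8, places members with different calls near each other. The neighbours of Scn10a and Scn11a were not looked up. Scn3a, Scn1a and Scn7a lie on chromosome 3 in a cluster with Scn2a and Scn9a, in which Scn1a is next to Scn9a and Scn9a next to Scn7a among protein-coding genes. Within this cluster Scn1a fell by 0.79, Scn7a rose by 0.41 and the values of Scn3a and Scn2a were 0.08 and -0.06. Scn2b and Scn4b are direct neighbours on chromosome 8, and the values of this pair were -0.05 and 0.64. Scn3b lies elsewhere on chromosome 8, next to Zfp202 and Gramd1b.

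The sequences before the start sites of Scn4b, Scn2b and Scn7a are shown because Scn4b and Scn7a rose while Scn2b, the neighbour of Scn4b, gave no call. RefSeq promoter sequences were at hand for 6 of the 8 members. Those of Scn1a and Scn3b, the members that fell, were missing, so neither was searched. Each line holds the 250 bases before the annotated start site, read 5′ to 3′ along the gene, with CpG dinucleotides in capitals: Scn4b at chr8:54343623-54343872 (plus strand), Scn2b at chr8:54322133-54322382 (plus strand) and Scn7a at chr3:71846285-71846534 (minus strand), all in GRCr8.
Scn4b: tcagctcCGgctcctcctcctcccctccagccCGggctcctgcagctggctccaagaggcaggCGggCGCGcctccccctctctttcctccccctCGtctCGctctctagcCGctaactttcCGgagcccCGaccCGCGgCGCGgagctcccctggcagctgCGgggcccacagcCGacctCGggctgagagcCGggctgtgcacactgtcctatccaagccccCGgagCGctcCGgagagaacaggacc
Scn2b: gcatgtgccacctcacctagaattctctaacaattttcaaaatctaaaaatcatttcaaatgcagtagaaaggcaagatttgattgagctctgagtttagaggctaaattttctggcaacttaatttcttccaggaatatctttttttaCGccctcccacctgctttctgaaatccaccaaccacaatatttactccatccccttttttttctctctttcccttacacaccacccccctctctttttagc
Scn7a: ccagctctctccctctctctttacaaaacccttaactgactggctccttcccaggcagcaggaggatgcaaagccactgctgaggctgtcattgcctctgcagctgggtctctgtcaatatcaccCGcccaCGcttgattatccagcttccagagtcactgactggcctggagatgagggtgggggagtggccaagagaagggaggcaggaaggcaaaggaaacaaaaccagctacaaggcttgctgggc

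The window of Scn4b was 71.6% G or C with 21 CpG dinucleotides, above the G and C share of 93.3% of 27457 promoter windows of this length, whose median was 52%. The window of Scn2b was 38.8% G or C with 1 CpG, and that of Scn7a 56% with 2. A search of both strands found the Snail and ZEB E-box CACCTG once in the Scn2b window, 93 bases before the start site, and once in that of Scn4a, and 15.6% of all windows hold it. The GC box GGGCGG was found once in the Scn7a window, on the opposite strand, and 32.4% of all windows hold it. The forkhead motif GTAAACA (3.25% of all windows), the T-box motif GGTGTGA (3.19%) and the D-box TTATGTAA (0.816%) were in none of the 6 windows, which says only that these letters are not there.

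Genes whose products bind, anchor, regulate or cleave sodium channels went both ways. Of 31 measured partner genes 9 fell, 5 rose and 17 did not pass at an adjusted p under 0.05 in limma, with a median difference of -0.07 against 0.01 over all genes. The count that fell was 5 without control replicate 1, 3 or 4, fits in which 2686, 2843 and 2959 of all genes passed, against 3580 with all arrays. Together 14 of the 31 passed, where 24.7% of all genes did, 13.0% as lower and 11.7% as higher. These shares include dim probe sets, whereas 28 of the 31 partner genes were among the upper 60% of probe sets by mean. The list was chosen with earlier results of these data known, so the count is only a description.

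The fibroblast growth factor homologous factors bind the intracellular end of alpha subunits and shift their inactivation. Fgf13 read 9.82, 9.53, 9.83 and 9.77 in control replicates 1 to 4 and 9.46, 9.32, 9.51 and 9.23 in miR-222 replicates 1 to 4, a difference of -0.36 (SE 0.09, limma adjusted p = 0.0250). Fgf12 read 8.38, 8.33, 8.30 and 8.26 in control and 8.62, 8.58, 8.85 and 8.58 in miR-222 arrays, a difference of 0.34 (SE 0.07, adjusted p = 0.0103). The groups of both genes did not overlap, with Fgf13 lower and Fgf12 higher. Fgf13 did not pass in the fits without miR-222 replicate 2 or 4 or without control replicate 1, 3 or 4 (adjusted p reaching 0.0715), whereas Fgf12 passed in each fit that left out 1 array. Fgf11 differed by 0.02 (95% interval -0.12 to 0.15) and Fgf14 by 0.04 (-0.22 to 0.29).

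Of 7 measured genes of the membrane scaffold 4 fell, 0 rose (limma; 0 rose at an unadjusted p under 0.05) and 3 did not pass. Over all genes 13.0% passed as lower and 11.7% as higher, shares that include dim probe sets. The 4 scaffold genes that fell were bright, with means above 81.9% (Dlg1) to 97.3% (Pkp2) of all probe sets. The list was chosen with earlier results of these data known, so the count is only a description. Dmd, the gene of dystrophin, fell by 0.36 (SE 0.06, limma adjusted p = 0.00295) and Dlg1, the gene of the scaffold protein SAP97, by 0.27 (SE 0.04, adjusted p = 0.00392). Ank3, the gene of ankyrin-G, which tethers sodium channels at the intercalated disc, fell by 0.18 (SE 0.05, adjusted p = 0.0348). Pkp2, the gene of the desmosomal protein plakophilin-2, fell by 0.15 (SE 0.04, adjusted p = 0.0303). The calls of Ank3 and Pkp2 did not survive the loss of miR-222 replicate 1 or of any one control array, nor that of Pkp2 the loss of miR-222 replicate 3 (adjusted p reaching 0.0898). Both were named after their values were seen, to complete the count.

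Of 8 measured direct regulators 1 rose and 1 fell, where 11.7% of all genes passed as higher and 13.0% as lower. The same shares stand beside the counts of the other lists in this paragraph. These lists were chosen with earlier results of these data known, so the counts are only a description. Calm3, a calmodulin gene, rose by 0.33 (SE 0.04, limma adjusted p = 0.00137), and Ywhah, the gene of a 14-3-3 protein, fell by 0.18 (SE 0.04, adjusted p = 0.0115). Of 8 transcription factors tied to cardiac sodium channel genes 2 rose and 2 fell. Foxo1, a forkhead factor that acts downstream of insulin signalling, rose by 0.95 (SE 0.10, adjusted p = 5.78e-04), from 9.04 to 9.22 in control to 9.92 to 10.37 in miR-222 arrays, with replicate 3 the highest. Hey2, a transcriptional repressor active in compact myocardium, rose by 0.43 (adjusted p = 0.0258), and the Iroquois genes Irx3 and Irx5 fell by 0.23 (adjusted p = 0.0150) and 0.22 (adjusted p = 0.0285). Hey2 did not pass in the fits without miR-222 replicate 2 or 4 or without control replicate 1, 2 or 4 (adjusted p reaching 0.0728). Irx5 passed with 7 arrays only in the fit without miR-222 replicate 3 (adjusted p reaching 0.0787 in the other fits). Hey2 and Irx5 too were named after their values were seen. Of 4 measured genes of the enzymes that cut beta subunits, the beta-secretase gene Bace1 rose by 0.26 (SE 0.05, adjusted p = 0.00546) and the gamma-secretase gene Psen2 fell by 0.54 (SE 0.09, adjusted p = 0.00432). Psen2 read 10.50 to 10.58 in control and 9.72 to 10.15 in miR-222 arrays, lowest in replicate 3.

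**Figure D4:**
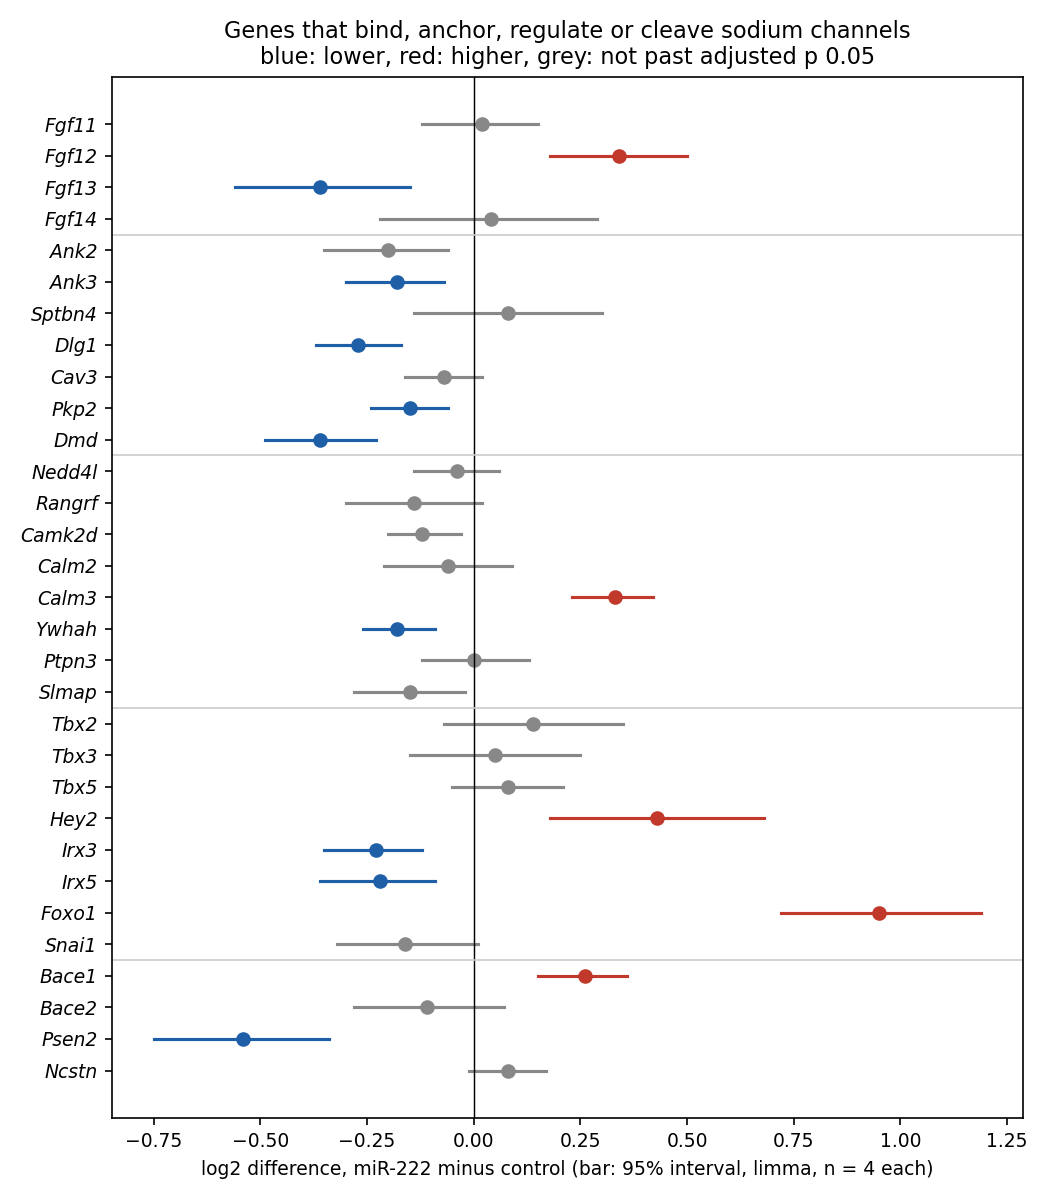
Log2 difference, miR-222 minus control (x axis), of the 31 measured partner genes with 95% intervals of the limma fit, 4 arrays in each group, grouped from top to bottom as growth factor homologous factors, scaffold, regulators, transcription factors and beta subunit cleavage. Foxo1 at 0.95 and Psen2 at -0.54 lie farthest from zero, and 17 genes in grey did not pass.

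The genes whose log2 levels were most like those of a member over the 8 arrays, by Pearson's r among 14506 genes, differed between members. These values describe the arrays: they hold the difference between the groups as well as the spread within them, and many genes reach a high r (above 0.95 in 833 genes for Scn1a, 263 for Scn3b, 192 for Scn4b and 43 for Scn7a). For Scn3b they were Ankrd1 and Csrp3, genes of stretch-responsive proteins of heart muscle, followed by Slc39a2, Zwint and Fads3, at r of 0.994 to 0.996. Csrp3 gave 0.998 without miR-222 replicate 3 and 0.996 for deviations from the group means. For Scn4b they were the circadian factor gene Dbp at 0.995, Adamts12, Osbpl6, the potassium channel gene Kcnd3 at 0.991 and Phyh, with r of 0.967 to 0.984 for deviations from the group means. For Scn1a they were Actr1a at 0.999, Snap23, Rnd3, Tsn and Ube2n, and for Scn7a Spn at 0.989, Cblc, Pias4, Marveld3 and Hs3st5. The deviations from the group means keep miR-222 replicate 3, which stood far from the rest of its group in Scn3b and Scn4b. For these genes they thus largely restate that array. The r without replicate 3 still holds the difference between the groups, so neither value shows likeness within groups apart from that array.

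The labelled cell type was checked against its markers. All 10 cardiomyocyte markers were bright, the lowest (Nkx2-5) with a mean above 95.3% of all probe sets. Some markers of other cells were bright too: the smooth muscle marker Acta2 lay above 99.5% and the fibroblast marker Col1a1 above 93.2%. Others of these lists were dimmer, such as Myh11 (58.0%) and Tcf21 (44.8%). Bright cardiomyocyte markers thus do not show that other cells were absent. The summed intensity of the cardiomyocyte markers was 82547 to 84550 in control and 74591 to 77201 in miR-222 arrays, with 3 lower and 1 higher in limma. Myh7 (-0.61), Ttn (-0.36) and Ryr2 (-0.14) were lower and Nkx2-5 (0.15) was higher. The other 6 differed by -0.14 (Actn2) to -0.01 (Myh6) and did not pass, so the sum does not show an equal fall of all 10. Of 9 fibroblast markers 3 fell (sums 9290 to 10373 and 7997 to 9117), and of 4 smooth muscle markers 1 (15431 to 15828 and 11997 to 14607). Of 5 endothelial markers 1 passed, Kdr, which fell by 1.51 (from a mean of 9.71 to 8.19). Their sums were 1470 to 1556 in control and 879 to 995 in miR-222 arrays, a fall that came from Kdr, since Pecam1, Cdh5, Tek and Emcn differed by 0.04, -0.13, -0.02 and -0.10 and did not pass. Kdr was named after its value was seen, and 24.7% of all genes passed in either direction. Of 5 macrophage markers 1 rose (485 to 536 and 525 to 560), of 8 neuronal markers 1 fell (2371 to 2492 and 2214 to 2448), and of 6 skeletal muscle markers 0 passed (1331 to 1637 and 1423 to 1540; unadjusted p under 0.05 in 1). No marker was at 0 in any array. The lowest sums of the cardiomyocyte, smooth muscle and neuronal markers were those of miR-222 replicate 3, the array apart in Scn3b and Scn4b. Among miR-222 arrays it had the highest sums of the endothelial (995) and Schwann cell markers (950). For the fibroblast, macrophage and skeletal muscle markers it lay inside the range of its group. The part of any of these cells in the results was not tested. Array medians were 202 to 219 and correlations within groups 0.989 to 0.993, replicate 3 included.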

How the data were processed

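RNA of 8 samples was measured on Affymetrix arrays, 4 with miR-222 and 4 with control precursor. The deposited table gave an intensity for each of 29170 probe sets on a linear scale, which the authors had put on a common scale by a method not given in the sources used here; the table held 0 zeros. The series text names another Affymetrix rat array than the annotation with which the identifiers paired. That annotation paired 15310 probe sets with 1 gene, 323 with several, 1 of them with Scn3a and Scn9a, and 13537 with none; probe sequences were not used here, so cross-hybridisation between related genes was not assessed.

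Values were taken as log2 with no pseudocount and no filter and compared with limma 3.58.1 (lmFit, eBayes) in R 4.3.3, two-sided, with Benjamini-Hochberg adjustment over all probe sets and a threshold of 0.05. The 95% intervals are those of the fit, unadjusted. The fit was tested on simulated data. Replicates are numbered in the order of listing. The members and lists were chosen with earlier results of these data known. Named were the 8 members, the other measured family genes, the 10 partners with the smallest p and all growth factor homologous factors, and the 5 genes most like each member past the threshold. Alternatives were quantile normalization, median centring, a pseudocount of 16, the upper 60% of probe sets by mean, trended robust variances, array weights, the mean of a gene's probe sets, an exact permutation test, unadjusted and, chosen after seeing the data, adjusted over all probe sets, and leaving out each array. Figures used matplotlib 3.10.9. The number of arrays limits the precision. Some family genes are not reported here.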

Additional observations from a re-analysis of the deposited data

Results flagged for a closer look

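In each group of 4 arrays Dixon's test was applied to the members, the other family genes and the partner genes, 84 groups of 42 genes in all, and 6 held an array beyond the 95% limit, where chance gives about 1 in 20 groups. In 4 of the 6 the array was miR-222 replicate 3. It stood at 8.81 for Scn3b where replicates 1, 2 and 4 lay at 10.25 to 10.37, and at 8.32 for Scn4b against 7.66 to 7.73, in each gene farther from the control arrays than the rest of its group. The same array stood at 10.93 for Ank3 against 11.08 to 11.10 and at 11.17 for Bace1 against 11.03 to 11.05. The others were miR-222 replicate 2 for Bace2, at 7.85 against 7.54 to 7.57, and control replicate 1 for Pkp2, at 12.40 against 12.36 in the others. Without miR-222 replicate 2, Bace2 passed as lower (-0.18, limma adjusted p = 0.0342).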

How the results depend on the processing

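Scn1a and Scn4b kept their direction and their calls under the 15 alternatives fitted with limma, at -0.82 to -0.74 and 0.48 to 0.71. Scn3b kept its direction in these 15, at -1.48 to -0.96, and lost its call in the 4 fits without a control array. Scn7a kept its direction in the 14 that measured it and lost its call in 1. By the exact permutation test adjusted over all probe sets, an alternative chosen after seeing the data, 0 members and 0 partner genes were called in either direction (adjusted p = 0.111 at the smallest), where the unadjusted exact p was 0.0286 for the 4 members and limma called 2 lower and 2 higher. With each array left out in turn, 1 to 2 members were lower, 1 to 2 higher, 5 to 9 partner genes lower and 4 to 5 higher. In these fits 2686 to 3404 of all genes passed, against 3580 with all arrays. With trended robust variances 12 partner genes were lower, with array weights 11 and among the upper 60% of probe sets 11. Of all genes 4189, 3905 and 4256 passed under these 3 settings. Among the upper 60% of probe sets, 1 member was higher, since Scn7a, Scn3a and Scn2b fell below that limit. Changes of sign concerned genes that did not pass: with 1 array left out Scn2b ranged from -0.22 to 0.08, Scn2a from -0.11 to 0.00, Scn8a from -0.03 to 0.07, Scn11a from -0.15 to 0.08, Fgf11 from -0.03 to 0.04 and Fgf14 from -0.02 to 0.14. The turned values were Scn2b at 0.08 without control replicate 2, Scn2a at 0.00 without miR-222 replicate 4, Scn11a at 0.08 and 0.04 without control or miR-222 replicate 4, Scn8a at -0.01 under median centring and without miR-222 replicate 2 or 4, -0.03 without control replicate 1 and -0.00 without control replicate 4, Fgf11 at -0.00 under quantile normalization, -0.01 under median centring and -0.03 without miR-222 replicate 1, and Fgf14 at -0.07 with array weights and -0.02 and -0.01 without control or miR-222 replicate 3. The cause of these changes was not tested. No paired analysis was possible because the labels give no replicate numbers or pairing. Dim probe sets limit what can be seen for Scn7a, Scn3a, Scn2b, Scn2a, Scn8a and Scn11a, and without detection calls background could not be set apart from signal.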
